A study of Arabidopsis thaliana with 8 samples.

Results

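The SQUAMOSA PROMOTER BINDING PROTEIN-LIKE (SPL) genes of Arabidopsis thaliana encode transcription factors that share a DNA-binding SBP domain. The 10 genes described here are SPL1, SPL2, SPL6, SPL7, SPL9, SPL10, SPL11, SPL12, SPL13A and SPL14. Their peaks of N6-methyladenosine (m6A), a methylated adenosine within messenger RNA, were taken as every row under their gene identifiers in the authors' peak lists. They came to 37 of 41217 listed peaks, 20 in the mutant list and 17 in the wild-type list, and to 10 of the 14304 genes listed in either. Seedlings aged 14 days were either atalkbh10b -/- (allele atalkbh10b-1) in the Columbia-0 ecotype, mutated in the m6A demethylase gene ALKBH10B, or wild type Columbia-0. Fragments of poly(A) RNA bound by an m6A antibody were sequenced along with input RNA, and the labels name 2 biological replicates of each genotype. Nothing in them says how many seedlings made a replicate or whether replicates were grown apart, so p-values measure the spread between these libraries, which may be technical.

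Most SPL genes of this family carry a site that pairs with microRNA156, which is abundant in young seedlings and declines with age. The decline releases the targeted SPL factors, and these promote the change from juvenile to adult leaves and then flowering, in part through microRNA172 and the MADS-box genes SOC1 and FUL. The long, non-targeted members act elsewhere, SPL7 in copper homeostasis, SPL14 in plant architecture and the response to a fungal toxin, and SPL1 and SPL12 in heat tolerance of flowers. m6A in plant transcripts is known to gather near the stop codon and in the 3′ untranslated region. Of the members, 6 are known microRNA156 targets (SPL2, SPL6, SPL9, SPL10, SPL11 and SPL13A) and 4 are not (SPL1, SPL7, SPL12 and SPL14).

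Each list gives a peak's first and last base along its gene and a log2 enrichment per replicate, as the authors deposited them. All statements on replicates rest on the 2 that the labels name. A further value column in each list, headed R3, matched no sample and was not used. Since no counts are given, sequencing depth is unknown and no counting interval is stated. ALKBH10B (AT4G02940) itself had 2 peaks in each list, which formed 1 shared pair. The log2 enrichments there were 1.61 and 3.44 in the mutant and 1.37 and 1.0 in wild type. Enrichment is relative to input and so does not check the loss of the transcript. Of 6 shoot markers, 4 were listed in both genotypes, as were 3 of 7 root markers, with a further 2 root markers in each list alone, and none of 6 flower markers was listed in either. The shoot markers short of both lists were RCA, in wild type alone, and LHCB1.1, in neither.

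All 4 non-targeted members carried peaks in both genotypes, as did 3 of the 6 targeted members, against 77.4% of all listed genes. The non-targeted members also had more peaks per listed gene (3.5 against 1.2 in the mutant, 3.0 against 1.25 in wild type). The part of peak number in being in both lists was not tested. Outside the members, the non-targeted SPL16 was listed in the mutant alone. The non-targeted SPL8 was in neither list, and nor were targeted genes such as SPL3, SPL4 and SPL5. SPL2, SPL10 and SPL11 were listed in both, SPL6 and SPL13A in the mutant alone, and SPL9 in wild type alone. Thus 7 of the 10 members were in both lists, against 77.4% of all listed genes, 2 were in the mutant alone, against 9.54%, and 1 was in wild type alone, against 13.0%. These shares of so few genes carry no test. Peaks are called from RNA of whole seedlings, where fewer cells of a type and less RNA per cell cannot be told apart, and a scarce transcript may go unlisted whatever its methylation. Transcript amounts were not examined, and their part in which SPL genes were listed was not tested.

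The targeted genes had 6 peaks in 5 listed genes in the mutant and 5 peaks in 4 listed genes in wild type. The non-targeted genes had 14 in the mutant and 12 in wild type, all 4 genes being listed each time. A single peak was listed for 57.5% of all mutant genes and 60.2% of all wild-type genes, and 3 or more for 15.0% and 12.7%, so that every non-targeted member stood among the genes with many peaks in both lists. The non-targeted members are the long ones, and the part of gene length in these counts was not tested.

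**Figure D1:**
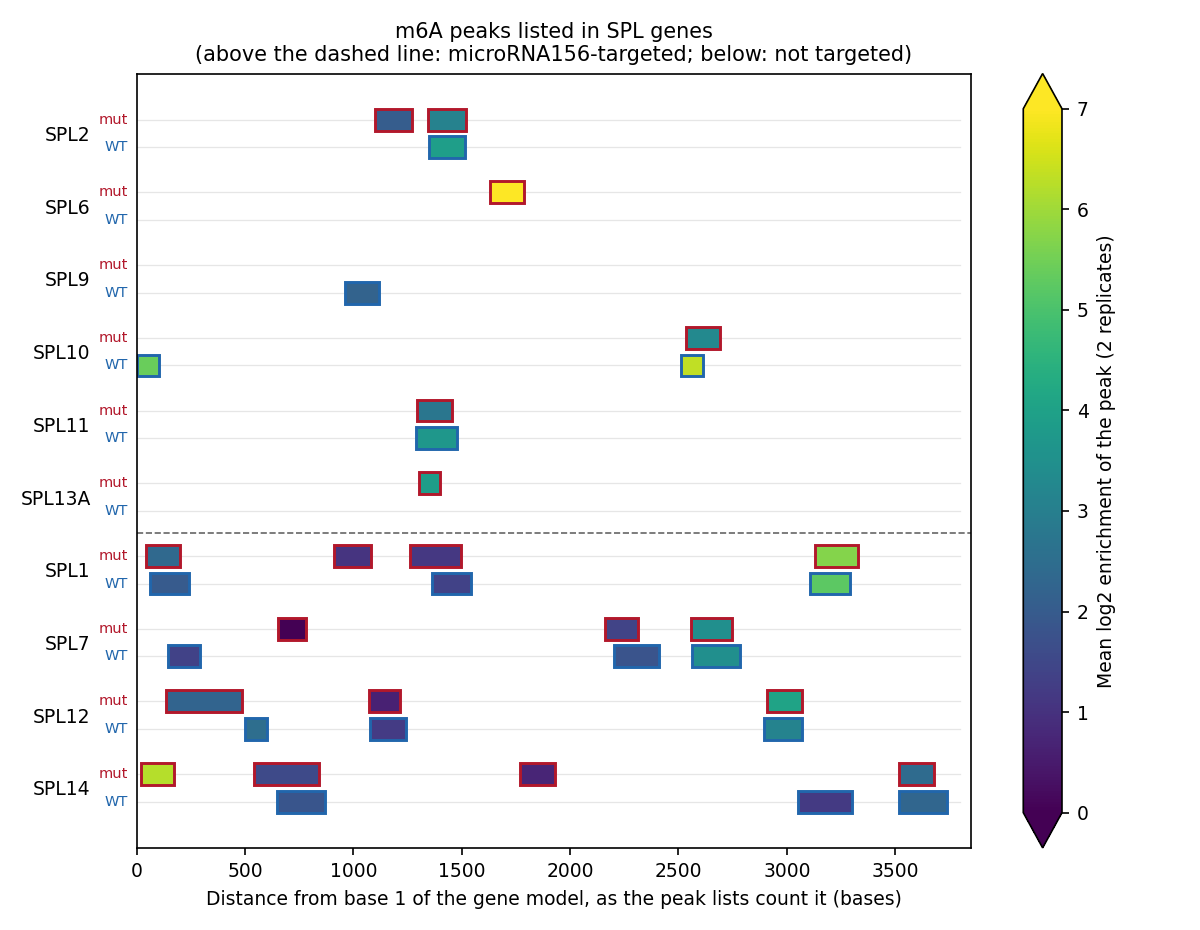
Position of each listed SPL peak along its gene (horizontal axis, bases from base 1 of the gene model as the lists count them), with mutant peaks (red border) above wild-type peaks (blue border) for each gene and the fill showing the mean log2 enrichment of 2 replicates. The non-targeted genes below the dashed line carry 3 or 4 peaks per list, and the last peak of each lies at about the same place in both genotypes.

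Among the targeted members, SPL2 (AT5G43270), which acts in floral organ and leaf development, had the closest values. Its shared peak covered bases 1343 to 1518 in the mutant and 1349 to 1516 in wild type. There the log2 enrichments were 2.89 and 3.29 in the mutant, against 3.22 and 4.57 in wild type. The ranges overlapped, and the lower wild-type value lay between both mutant values. The mutant list alone held another SPL2 peak, at bases 1101 to 1268, with 1.43 and 2.67.

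SPL11 (AT1G27360) and SPL10 (AT1G27370) are adjacent genes that act with SPL2 in shaping lateral organs. SPL11 had 1 peak in each list, at bases 1294 to 1456 in the mutant and 1291 to 1476 in wild type, with 3.79 and 1.70 in the mutant and 3.45 and 3.95 in wild type. Mutant replicate 2 was low and replicate 1 lay between the wild-type values. SPL10 had its shared peak at bases 2534 to 2690 in the mutant and 2511 to 2610 in wild type. Its values were 8.34 and -1.75 in the mutant and 5.44 and 7.20 in wild type, so that the mutant replicates stood on either side of both wild-type values. The gap of 10.09 between the mutant replicates stood at percentile 98.3 of such gaps over all mutant peaks. The wild-type list alone held a peak at the start of SPL10, bases 1 to 102, with 3.68 and 7.11.

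The remaining targeted members were each listed in a single genotype. SPL6 (AT1G69170), known for a part in immunity through intracellular receptors, had a mutant peak at bases 1632 to 1786 with 5.06 and 8.97. Its mean of 7.01 was the highest of the 37 SPL peaks and stood at percentile 95.5 of all mutant peaks, and both replicates were high. SPL13A (AT5G50570), known to hold back the change from cotyledon to leaf stage, had a mutant peak at bases 1301 to 1400 with 7.15 and 0.60, high in replicate 1 alone. SPL9 (AT2G42200), a main driver of adult leaf traits and an activator of microRNA172 transcription, had a wild-type peak at bases 961 to 1117 that was likewise high in replicate 1 alone (4.62 and -0.25). In the TAIR10.1 gene table, SPL6 overlaps the protein-coding gene AT1G69180, SPL13A overlaps AT5G50565 and SPL9 overlaps an annotated microRNA gene, and SPL13A has the near-identical copy SPL13B, so reads at these 3 genes may be uncertain in origin. Whether the overlaps reach the listed peaks was not examined. The other 7 members overlap no other gene there.

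Requiring a log2 enrichment of 1 in both replicates left SPL6 in the mutant alone, removed SPL13A and SPL9 from both lists, and put SPL10 in wild type alone. The mutant alone then had 1 member and wild type alone also 1, SPL10 in place of SPL9. SPL2, SPL11 and all 4 non-targeted members stayed in both lists.

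The non-targeted members shared a layout in which the last peak along the gene was the most enriched. In wild type this held for 4 of 4 genes, against 67.5% of all 1641 wild-type genes with 3 or more peaks. In the mutant it held for 3 of 4, against 55.8% of 1870 such genes. The exception was SPL14 in the mutant, where a peak near the start had the highest value. In most other genes with many peaks, too, the last peak was the most enriched, so nothing particular to the SPL genes is read from these shares.

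SPL1 (AT2G47070) had the most enriched of the last peaks. Across bases 3131 to 3326 in the mutant and 3109 to 3290 in wild type its values were 6.94 and 4.47 in the mutant and 5.85 and 4.64 in wild type. The means of 5.71 ± 1.74 (SD, n = 2) and 5.24 ± 0.85 stood at percentiles 89.9 and 89.1 of their lists, and both wild-type values lay within the mutant range. Its first peak, at bases 44 to 200 in the mutant and 64 to 239 in wild type, had 2.40 and 2.32 in the mutant and 3.36 and 0.62 in wild type. A middle peak, at bases 1261 to 1497 in the mutant and 1361 to 1541 in wild type, was weak in both, with 2.07 and 0.18 in the mutant and 1.68 and 1.09 in wild type. The mutant list alone held one more, at bases 911 to 1080, with 1.41 and 0.71.

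SPL12 (AT3G60030), the closest relative of SPL1, had its last peak at bases 2910 to 3068 in the mutant and 2895 to 3070 in wild type. The values were 3.46 and 4.66 in the mutant and 3.76 and 2.49 in wild type, and the ranges overlapped. Its middle peak, at bases 1071 to 1216 in the mutant and 1079 to 1240 in wild type, had -0.07 and 1.36 in the mutant and 1.98 and 0.45 in wild type. Near the start the lists differed. The mutant had a peak of 354 bases (bases 134 to 487, with 3.88 and 0.57), wider than nearly all mutant peaks (percentile 99.5), and wild type had one of 100 bases just beyond it (bases 501 to 600, with 1.5 and 3.49). They share no base, so each counts as having no partner although they are near neighbours.

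SPL7 (AT5G18830), the regulator of copper uptake, had nearly equal means at its last peak. At bases 2559 to 2746 in the mutant and 2563 to 2781 in wild type it had 3.30 and 3.60 in the mutant and 4.43 and 2.49 in wild type, with means of 3.45 ± 0.21 and 3.46 ± 1.37. The peak before it, at bases 2161 to 2310 in the mutant and 2202 to 2410 in wild type, had 1.54 and 1.26 in the mutant and 2.85 and 0.81 in wild type. In both cases both mutant values lay inside the wild-type range. Toward the start, a mutant peak at bases 651 to 780 had 2.65 and -6.48, the lowest value of any SPL peak, and a wild-type peak at bases 145 to 290 had -0.36 and 3.13. Each of these was enriched in 1 replicate only.

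SPL14 (AT1G20980) had the steadiest shared peak. At bases 3519 to 3678 in the mutant and 3518 to 3738 in wild type the values were 2.52 and 2.29 in the mutant and 2.59 and 1.95 in wild type, a range of less than 1 on the log2 scale over 4 values. Its other shared peak, at bases 542 to 842 in the mutant and 650 to 869 in wild type, had 2.83 and 0.30 in the mutant and 2.34 and 1.36 in wild type. The mutant list added a peak at bases 19 to 173 with 8.60 and 3.82, after SPL6 the most enriched mutant SPL peak by its mean of 6.21, and high in both replicates. It also added one at bases 1771 to 1928 with 1.44 and 0.02. The wild-type list added bases 3051 to 3300 with 1.45 and 0.95.

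Over the family, 12 pairs of overlapping peaks could be compared between genotypes, 3 in targeted and 9 in non-targeted genes. At none of the 12 did both mutant values lie above, or both below, both wild-type values, whereas over all 13875 pairs this was so for 13.7% and 15.0%. By a ratio of 1.5 between means, 1 SPL pair was higher in the mutant, against 32.4% of all pairs, 3 were lower, against 32.1%, and 8 lay between, against 35.5%. The 1 higher was the last SPL12 peak, with a difference of 0.93 on the log2 scale (SE 1.07). The 3 lower were those of SPL10 (-3.02, SE 3.66), SPL11 (-0.95, SE 1.15) and SPL2 (-0.81, SE 1.01), which are all the targeted pairs. Without mutant replicate 1 the pairs lower numbered 6, and without mutant replicate 2 the pairs higher numbered 4. Without wild-type replicate 1 the pairs higher numbered 5, and without wild-type replicate 2 there were 0 higher and 7 lower. None passed limma's moderated test fitted over all pairs, with a Benjamini-Hochberg adjusted p of 1.0 for each and a smallest unadjusted p of 0.431. No pair of any gene passed (0.0% in each direction), with 491 pairs (3.54%) at an unadjusted p under 0.05, none of them in an SPL gene.

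**Figure D2:**
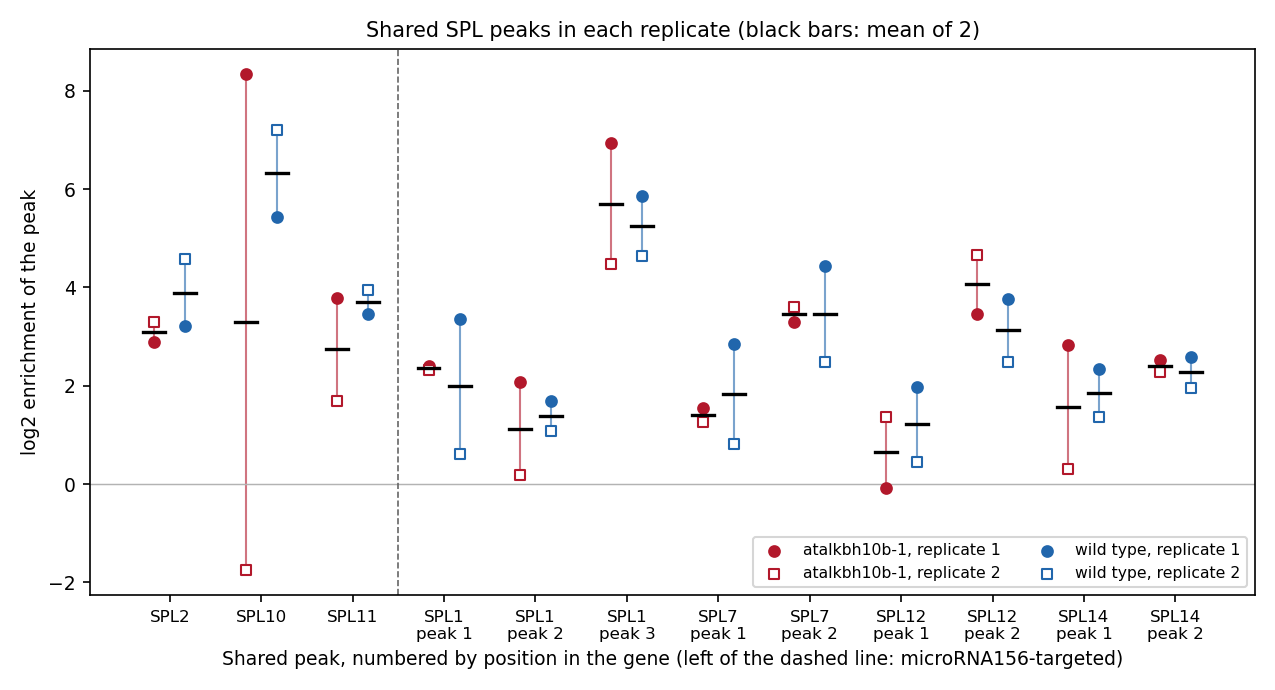
Log2 enrichment (vertical axis) at the 12 shared SPL peaks in mutant replicates (red) and wild-type replicates (blue), with circles for replicate 1, squares for replicate 2 and black bars for the mean of 2. The ranges of the genotypes overlap at every peak, and the widest gap between replicates is that of SPL10 in the mutant (8.34 and -1.75).

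The median difference, mutant minus wild type, was -0.95 for the 3 targeted pairs and -0.01 for the 9 non-targeted pairs, against -0.02 for all pairs. The median size of the difference, whatever its sign, was 0.95 in targeted and 0.37 in non-targeted pairs, against 0.92 over all pairs. These medians moved with single libraries. Without mutant replicate 1 the targeted median was -1.99 and the non-targeted median 0.02, and SPL10 stood at -8.07. Without mutant replicate 2 the targeted median was 0.09 and the non-targeted median 0.33, and SPL10 stood at 2.02. Without wild-type replicate 1 the medians were -1.48 for targeted and 0.59 for non-targeted pairs. Without wild-type replicate 2 they were -0.7 for targeted and -0.77 for non-targeted pairs, so the targeted median was then no longer the lower. The difference between targeted and non-targeted genes was not tested, since 3 and 9 pairs from few genes are no replicates of a condition.

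**Figure D3:**
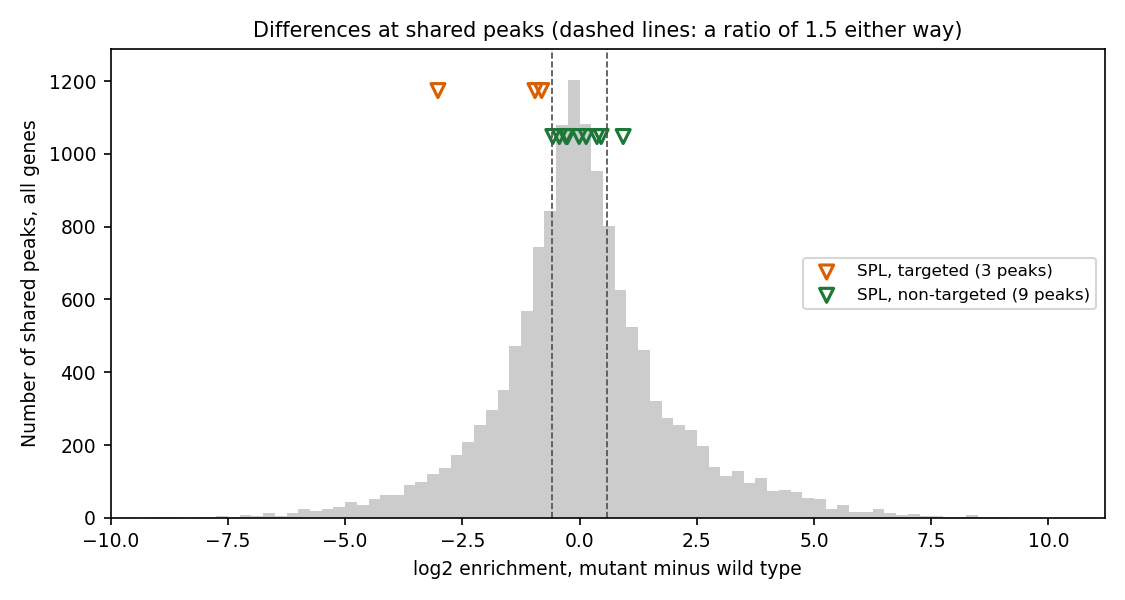
Number of shared peaks of all genes (grey histogram) by log2 enrichment in the mutant minus wild type, with triangles for the 3 targeted (orange) and 9 non-targeted (green) SPL pairs and dashed lines at a ratio of 1.5 either way. The targeted pairs lie left of the lower line at -0.81, -0.95 and -3.02, and 8 of the 9 non-targeted pairs lie between the lines.

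Levels of the sets were compared first over every peak. In the mutant, the median of peak means was 3.19 for targeted and 1.89 for non-targeted genes, against 2.45 for all peaks. In wild type it was 3.90 for targeted and 1.92 for non-targeted genes, against 2.45. With only the most enriched peak of each gene, the medians were 3.29 for targeted and 4.88 for non-targeted genes in the mutant, and 3.80 and 3.29 in wild type, so that the order turned in the mutant. In the mutant, which set had the higher level thus depended on how peaks were summarised, while in wild type the targeted median was the higher both ways. The non-targeted genes had more peaks each from which the most enriched was taken.

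Since pairs were formed by overlap, their closeness is set in part by that rule. The centres of the 12 SPL pairs were a median of 29.2 bases apart and at most 72.0, against a median of 21.0 over all pairs. The SPL overlaps covered a median of 91.2% and at least 72.7% of the shorter peak, against a median of 95.5% over all pairs. Without a partner were 8 of 20 mutant peaks (40.0%, against 30.7% of all mutant peaks) and 5 of 17 wild-type peaks (29.4%, against 30.6%). Of the peaks without a partner, 3 of the 8 in the mutant (SPL2, SPL6 and the start of SPL14) and 2 of the 5 in wild type (the start of SPL10, and SPL12) reached a log2 enrichment of 1 in both replicates.

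Replicates of SPL peaks without a partner lay further apart than those of shared SPL peaks. The median gap between replicates was 3.61 without a partner and 1.32 with one in the mutant, and 3.43 and 1.31 in wild type. Over all genes the same medians were 2.33 and 1.61 in the mutant and 2.1 and 1.26 in wild type, so the SPL peaks without a partner had the wider gaps. In the non-targeted genes, replicate 1 was above replicate 2 at 11 of 14 mutant peaks and 10 of 12 wild-type peaks, against 54.4% and 49.9% of all peaks. In the targeted genes it was above at 3 of 6 mutant peaks and 1 of 5 wild-type peaks. In all, 11 of 20 mutant and 11 of 17 wild-type SPL peaks reached a log2 enrichment of 1 in both replicates (55.0% and 64.7%, against 64.6% and 68.2% of all peaks).

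**Figure D4:**
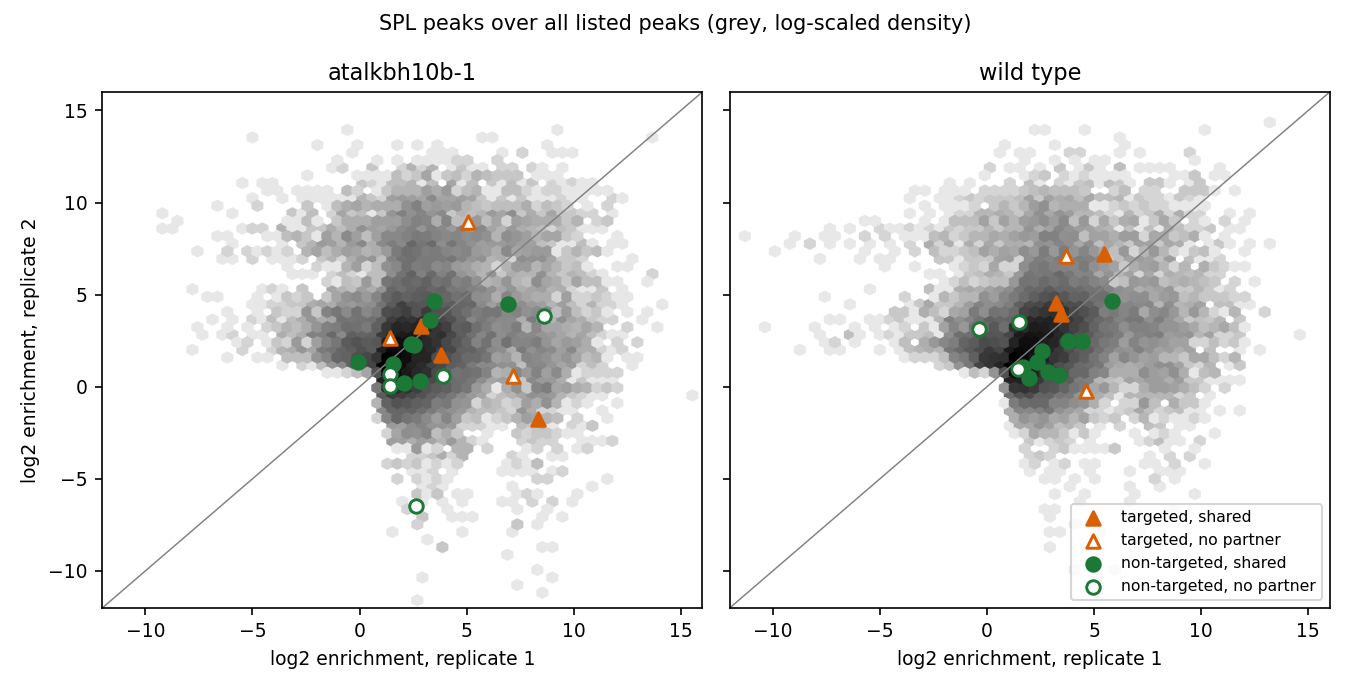
Log2 enrichment of each peak in replicate 1 (horizontal axis) and replicate 2 (vertical axis), mutant on the left and wild type on the right, with all listed peaks as grey density and SPL peaks as orange triangles (targeted) or green circles (non-targeted), filled where shared and open where without a partner. Among the symbols far from the line of equal values are the mutant peaks of SPL10 (8.34 and -1.75), SPL13A (7.15 and 0.60) and SPL7 (2.65 and -6.48).

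The rest of the family was largely unlisted. SPL3, SPL4 and SPL5, small targeted genes whose microRNA156 site lies in the 3′ untranslated region, had no peak in either list, and neither had SPL15, SPL8 or SPL13B. SPL16, a non-targeted relative of SPL14, was listed in the mutant alone and is no member here. It had a peak at bases 17 to 130 with 7.53 and -0.08 and one at bases 3209 to 3360 with -2.04 and 3.66, so each was enriched in 1 replicate only.

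Genes around the SPL factors had values in both directions, and none passed limma's test. Genes that make or use microRNAs were all listed in both genotypes (8 of 8, against 77.4% of all listed genes). Of their 9 pairs, 4 were at least 1.5-fold higher in the mutant, against 32.4% of all pairs, and 3 lower, against 32.1%. SQN, a cyclophilin that assists AGO1 and whose loss raises SPL activity, had 9.38 and 8.72 in the mutant against 2.43 and 4.20 in wild type, a gap between groups that no SPL pair showed (difference 5.74, limma unadjusted p = 0.00568, adjusted p = 1.0). HYL1 also had both mutant values above both wild-type values, as 13.7% of all pairs did, and HST, an exportin family protein, both below, as 15.0% did.

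Of the 6 AP2-like targets of microRNA172, which repress flowering, 3 were in both lists, against 77.4% of all listed genes. The mutant alone had 1, against 9.54%, and wild type alone had 2, against 13.0%. AP2 (6.29 and 3.44) and SMZ (-0.05 and 3.25) were listed in wild type alone, TOE3 in the mutant alone (-2.03 and 2.86), and TOE1, TOE2 and SNZ in both. The SMZ and TOE3 peaks were thus enriched in 1 replicate only. Of their 7 pairs, 2 were higher and 3 lower, against 32.4% and 32.1% of all pairs. The last peaks of TOE1 and TOE2 had both mutant values below both wild-type values, as had 15.0% of all pairs. The first TOE1 pair had the higher mean in the mutant (3.52 against 1.52), with overlapping values. Of 15 SPL targets and partners, 6 were in both lists, FT was in the mutant alone and 8 were in neither, among them FUL, AP1 and LFY. Over all listed genes, which leave out those in neither, 77.4% were in both and 9.54% in the mutant alone. The FT peak had 5.43 and 0.0, so it was enriched in 1 replicate only. Of their 8 pairs, 4 were higher and 3 lower, against 32.4% and 32.1% of all pairs. Both mutant values lay above in MYB33, GAI and the first peak of RGA, as in 13.7% of all pairs. The other RGA pair had the lower mean in the mutant (1.11 against 2.22), with overlapping values. GAI, a DELLA repressor of gibberellin responses, had 6.87 and 10.04 in the mutant against 3.06 and 4.44 in wild type (limma unadjusted p = 0.0322, adjusted p = 1.0).

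Of 10 regulators of MIR156 genes, 9 were in both lists, against 77.4% of the genes in at least 1 list, and PIF5 was in neither. Their 13 pairs divided into 5 higher and 6 lower, against 32.4% and 32.1% of all pairs. Both mutant values lay above in BMI1A, against 13.7% of all pairs, and both below in HXK1 and at the last shared peak of SWN, against 15.0%. None of the 4 MIR156 and MIR172 loci examined was listed. In the copper response governed by SPL7, 5 of 10 genes were in both lists, the copper transporter gene COPT1 was in wild type alone, and 4 were in neither. Of the genes in at least 1 list, 77.4% were in both and 13.0% in wild type alone. Of the 7 copper pairs, 3 were higher and 2 lower, against the same 32.4% and 32.1%. CSD1, a copper/zinc superoxide dismutase, had 1.46 and 1.57 in the mutant against 3.04 and 4.57 in wild type. Both mutant values lay above in the iron superoxide dismutase gene FSD1 and at the first peak of CSD2, the plastid copper/zinc enzyme, and both below in CSD1, against 13.7% and 15.0% of all pairs. The last CSD2 pair went the other way by its means (difference -4.2). Its values, 3.92 and 1.5 in the mutant against 9.95 and 3.87 in wild type, overlapped.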

How the data were processed

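The authors deposited 1 peak list per genotype with, per the file headers, a log2 enrichment per replicate. TopHat2 2.0.14, edgeR and TAIR10 are named, without a role, in the submitters' processing notes. Not given in the sources used here are the peak caller, thresholds, formula of enrichment, library scaling, strand use and whether introns count in positions. A value exists only where a peak was listed. The 2 value columns that match no sample (headed R3) were not used.

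Peaks of a gene overlapping by at least 1 base were partners, and pairs that were each other's largest overlap were compared. The deposited log2 values of 2 mutant and 2 wild-type replicates were fitted over all pairs with limma 3.58.1 in R 4.3.3. Genotype was the sole term, and p-values were adjusted by Benjamini-Hochberg and called under 0.05. What size of difference the fit can call at the spread between these replicates was not tested. Percentiles rank a peak's mean, width or replicate gap among all peaks of its list. Members and lists were chosen with earlier results of these data known; all members are named, and of the lists of surrounding genes those whose groups do not overlap or that are in 1 list alone, while shoot, root and flower markers served for presence only. Which SPL genes microRNA156 targets, and the names SPL16, CITF1 and ALKBH10B, are general knowledge; other symbols come from a TAIR10.1 table holding all 10 members and all 78 list genes. Alternatives were a longer overlap, centring, a filter on enrichment, a ratio of 2, leaving out replicates and a replicate block. Python 3.11.15, numpy 2.4.6, pandas 2.3.3, scipy 1.17.1 and matplotlib 3.10.9 were used.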

Additional observations from a re-analysis of the deposited data

How the results depend on the processing

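Direction at the 12 shared SPL peaks was seldom lost to a processing choice and often to a single library. A longer overlap, the enrichment filter (which left the middle SPL12 peak without a value) and a replicate block reversed none, and centring each replicate turned the last SPL7 peak to 0.07. Leaving out 1 replicate at a time reversed 10 of 12, with log2 differences from -1.0 to 1.74, from -1.2 to 0.69 and from -0.77 to 1.69 at the SPL1 peaks in order, -1.45 to 0.59 and -0.98 to 0.96 for SPL7, -1.34 to 0.19 at the middle SPL12 peak, -1.55 to 0.97 and -0.18 to 0.46 for SPL14, -8.07 to 2.02 for SPL10 and -1.99 to 0.09 for SPL11. The SPL2 peak (-1.48 to -0.13) and the last SPL12 peak (0.3 to 1.56) kept their sign. Pairs at least 1.5-fold higher ranged from 0 to 5 and lower from 2 to 7 when a replicate was left out. A ratio of 2 left 0 higher and 1 lower. No pair of any gene passed limma under these alternatives, and 1 SPL pair, SPL10 without mutant replicate 1, had an unadjusted p under 0.05 (0.00636, adjusted p = 0.453). Fits that leave out a replicate have 1 library in that genotype, which is assumed to vary like the other genotype, so such a p rests on a single mutant value.

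Requiring a log2 enrichment of 1 in both replicates left 1 member in the mutant alone and, of the peaks without a partner, 3 in the mutant and 2 in wild type. With 1 replicate at a time at that level, members in the mutant alone numbered 1 to 2. With the most enriched peak of each gene, the non-targeted medians were 4.88 in the mutant and 3.29 in wild type. Over single replicates the targeted median ranged from 2.18 to 4.42 in the mutant and from 3.68 to 4.57 in wild type, and the non-targeted median from 1.31 to 2.59 in the mutant and from 1.66 to 2.46 in wild type. With the replicate block, 567 pairs of all genes stood at an unadjusted p under 0.05, against 491. Deviations of same-numbered libraries were uncorrelated over peaks (Pearson's correlation 0.007 over 13875 pairs). A difference common to all peaks would not show in this value. Whether same-numbered libraries were grown or handled together is not stated and was not tested. The cause of these shifts was not tested. The depth behind the values is unknown, and 2 replicates per genotype limit their precision.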
